A study of Mus musculus with 6 samples.

Results

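The expression of 8 interferon regulatory factor (IRF) genes, Irf1, Irf2, Irf3, Irf4, Irf5, Irf7, Irf8 and Irf9, was compared between regulatory T (Treg) cells induced in culture with and without sorafenib (Sora), a multikinase inhibitor used against hepatocellular carcinoma. The genes were chosen by name from the 22939 genes of the count table, with earlier results of these data known. A further gene of the family was not analysed here. Each of the 8 had enough reads to be tested. RNA sequencing covered 3 libraries of control Treg (ctrl-Treg) cells and 3 libraries of Treg cells that had received Sora (Sora-Treg cells). Both groups carried the same Foxp3 GFP knock-in reporter on a C57BL/6J background and differed by the drug alone in the labels. Per the methods of the study, naive CD4+ T cells from spleen and lymph nodes were stimulated through CD3 and CD28 in the presence of transforming growth factor β1 and of antibodies that block interferon gamma and interleukin 4, and GFP+ cells were sorted. Both groups were therefore induced cells made in vitro, with interferon gamma neutralised in the medium. The dose and time of Sora for the sequenced cells and the age of the reporter mice are not given in the sources used here. Nothing in the labels ties the libraries to separate cultures or animals, so p-values measure only the spread between these 6 samples.

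IRFs are transcription factors that share an amino-terminal DNA-binding domain and recognise GAAA repeats, the core of the interferon-stimulated response element (ISRE). IRF3 and IRF7 are phosphorylated downstream of nucleic acid sensors and switch on type I interferon genes, IRF9 joins STAT2 in the complex that answers type I interferon, and IRF1 is a main target and effector of interferon gamma, which IRF2 can oppose at the same sites. IRF4 and IRF8 bind DNA weakly by themselves and act with partners such as PU.1, SPIB, BATF and JUN proteins. In Treg cells IRF4 is induced by T cell receptor signalling and is needed for the effector programme, and IRF5 and IRF8 are best known from myeloid cells and B cells.

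The libraries held between 30727686 and 37717324 counted reads, and the 6 libraries showed the T and Treg markers of the label. Summed over 9 such markers, the level was 4230 to 4260 in ctrl-Treg libraries against 7470 to 7590 in Sora-Treg libraries, in CPM (reads relative to the library total, which TMM, the trimmed mean of M values, rescales). Most of that difference was Il2ra, with means of 1930 and 3790 CPM, and Ctla4, with 383 and 1110 CPM. By the edgeR test 8 of the 9 were higher and 0 lower. Means were 197 and 332 CPM for Cd3d, 230 and 348 CPM for Cd3e and 140 and 335 CPM for Cd3g. Tnfrsf18 went from 282 to 494 CPM, while Foxp3 stood at 259 and 272 CPM and Cd4 at 679 and 709 CPM. Markers of other cells were low but unequal. The sum of 7 myeloid markers was 93.5, 93 and 24.9 CPM in ctrl-Treg 1, 2 and 3 and 22.3, 42.9 and 20.8 CPM in Sora-Treg 1, 2 and 3, with 5 of the 7 lower by the edgeR test, 1 lower by DESeq2 and none lower (1 higher) with ctrl-Treg 3 as the lone control. The macrophage lysozyme gene Lyz2 carried much of it, at 47.5, 47.9 and 12.6 CPM against 5.64, 21.2 and 4.66 CPM. The sum of 6 B cell markers was 9.9 to 11 CPM against 6.12 to 7.68 CPM, with each of the 4 tested markers lower. The dendritic cell marker Itgax had at most 8 reads in any library, and 4 of the 5 dendritic cell markers tested were lower. The sum of 8 such markers was nevertheless 139 to 148 against 206 to 216 CPM, because the class II gene H2-Ab1, the only one higher, went from 53.6 to 58 CPM to 184 to 193 CPM. The sum of 2 CD8 markers was 13.2 to 15.1 against 12.6 to 13.8 CPM. Most of it was Cd8b1, which was not called, with means of 11.3 and 11.6 CPM. Cd8a was lower, at 2.54 to 2.8 against 1.41 to 1.77 CPM (edgeR adjusted p = 0.00872). The part of these other cells in the results on the IRF genes was not tested as a whole. Results that leave out ctrl-Treg 1 and 2, the libraries highest in myeloid markers, are given where they bear on a gene. In bulk RNA, a change in the number of cells of a type and a change in RNA per cell cannot be told apart.

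Motifs of the pathway, 4 in all, were searched on both strands of the RefSeq promoter windows (assembly GRCm38.p6), which run from 250 bases before to 50 bases after the transcription start site, to show the sequence in front of the genes that rose and around matches in the windows of others. All 8 genes had at least 1 window, with 11 in total because Irf1, Irf8 and Irf9 each had 2. The motifs were the ISRE core (GAAA, any 2 bases, GAAA), the composite ETS-IRF element (GGAA, any 2 bases, GAAA), the STAT site GAS (TTC, any 3 bases, GAA) and the AP-1 site (TGA, any base, TCA). They occur in 3.44%, 2.72%, 8.3% and 7.81% of all 32851 windows of that length. Matches lay in windows of Irf8, Irf1 and Irf2 and in none of those of Irf3, Irf4, Irf5, Irf7 and Irf9. A match is only a run of letters in the window, and these data hold no measure of binding.

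The 250 bases in front of the start site of Irf8 and Irf4, the pair of genes that rose, are printed with every match in capitals.
Irf8, chr8:120736108-120736357, plus strand: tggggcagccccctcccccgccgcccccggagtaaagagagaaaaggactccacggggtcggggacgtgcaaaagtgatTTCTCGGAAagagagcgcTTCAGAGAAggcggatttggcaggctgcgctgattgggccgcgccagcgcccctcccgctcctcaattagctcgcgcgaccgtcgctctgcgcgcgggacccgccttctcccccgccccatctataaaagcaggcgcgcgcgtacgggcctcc
Irf4, chr13:30748983-30749232, plus strand: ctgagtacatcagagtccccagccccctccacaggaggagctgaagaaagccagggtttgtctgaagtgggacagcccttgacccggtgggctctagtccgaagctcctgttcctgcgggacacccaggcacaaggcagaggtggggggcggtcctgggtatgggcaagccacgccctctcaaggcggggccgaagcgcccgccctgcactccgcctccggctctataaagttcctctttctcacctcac
The Irf8 stretch held 2 GAS matches, at positions -171 to -163 and -153 to -145 counted from the start site at 0. An ISRE core and an ETS-IRF element can overlap in letters, and matches were counted for each motif separately. The Irf4 stretch, like the whole Irf4 window, held none of the 4 motifs.

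Irf1 and Irf2, the antagonist pair of the family, are printed around 1 match each.
Irf1, GAS match, chr11:53769909-53769947, plus strand: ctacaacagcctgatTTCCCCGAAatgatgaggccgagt
Irf2, ISRE core match, chr8:46739495-46739528, plus strand: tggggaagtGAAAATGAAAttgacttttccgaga
The Irf1 match lay at -90 to -82. In the Irf2 window the ISRE core at -241 to -232 shared bases with an ETS-IRF match at -247 to -238, and a GAS match followed at -224 to -216.

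Of the 8 IRF genes, 2 were higher in Sora-Treg cells, Irf4 and Irf8, and 4 were lower, Irf7, Irf5, Irf9 and Irf3, while Irf1 and Irf2 did not pass the test. The test was the edgeR quasi-likelihood test with Benjamini-Hochberg adjustment over 13463 genes, and a gene was called at an adjusted p under 0.05. By the same test 29.7% of all tested genes were higher and 29.9% were lower. None of the 8 passed a limit of 2-fold in addition, which 11.3% of all genes did. The groups did not overlap in TMM-scaled CPM for 7 of the 8, and for 63.7% of all genes. The median log2 fold change was -0.088 over the 8 genes and -0.004 over all tested genes. With so many genes called in the whole table, the counts alone say little of the IRF genes, and the size and direction of each change follow by role.

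Irf4, the T cell receptor-induced member that effector Treg cells need, was the most abundant of the 8. It is a gene of chromosome 13 (GRCm38, 30749226 to 30766976, plus strand) that no other annotated gene overlaps. Its level was 739, 757 and 753 CPM in ctrl-Treg 1, 2 and 3 and 1100, 1130 and 1100 CPM in Sora-Treg 1, 2 and 3, from 24036 to 39227 reads per library. The lowest Sora-Treg library lay far above the highest ctrl-Treg library. The change was 1.48-fold, a log2 fold change of 0.57 ± 0.02 (standard error, n = 3 per group, edgeR adjusted p = 2.51e-15). Per length, the mean rose from 163 ± 1.62 to 223 ± 3.34 FPKM, the deposited value that divides reads by gene length and library total (SD, n = 3). That placed Irf4 at percentile 98.8 of the detected genes without Sora and at percentile 99 with it.

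Irf8, a lineage factor of macrophages, dendritic cells and B cells that is also expressed in T cells, rose the most. It lies on chromosome 8 (120736358 to 120756694, plus strand). The libraries read 249, 239 and 240 CPM in ctrl-Treg cells and 479, 466 and 478 CPM in Sora-Treg cells, tight groups with a wide gap. The increase was 1.95-fold, just inside the 2-fold limit, with a log2 fold change of 0.97 ± 0.03 (n = 3 per group, edgeR adjusted p = 2.01e-18). By p-value Irf8 ranked 115th and Irf4 ranked 327th of the tested genes. The mean per length went from 73.5 ± 1.85 to 133 ± 2.19 FPKM. Markers of the cells in which Irf8 is best known differed between libraries. The myeloid marker sum was 93.5, 93 and 24.9 CPM in ctrl-Treg libraries and 22.3, 42.9 and 20.8 CPM in Sora-Treg libraries. The B cell sum was lower in each Sora-Treg library than in each ctrl-Treg library. Of the 5 dendritic cell markers tested, H2-Ab1 was higher and 4 were lower, among them Zbtb46 at 14.4 to 16.1 against 3.76 to 4.61 CPM. The part of these cells in the Irf8 change was not tested. With ctrl-Treg 3, the control with the lowest myeloid marker sum, as the lone control, the log2 fold change was 0.98. In fits of this kind the lone sample is taken to vary like the Sora-Treg libraries. A second annotated gene model, Gm20388, spans Irf8 on the same strand. It is not among the genes of the count table, so any reads of it cannot be set apart from those of Irf8.

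**Figure D1:**
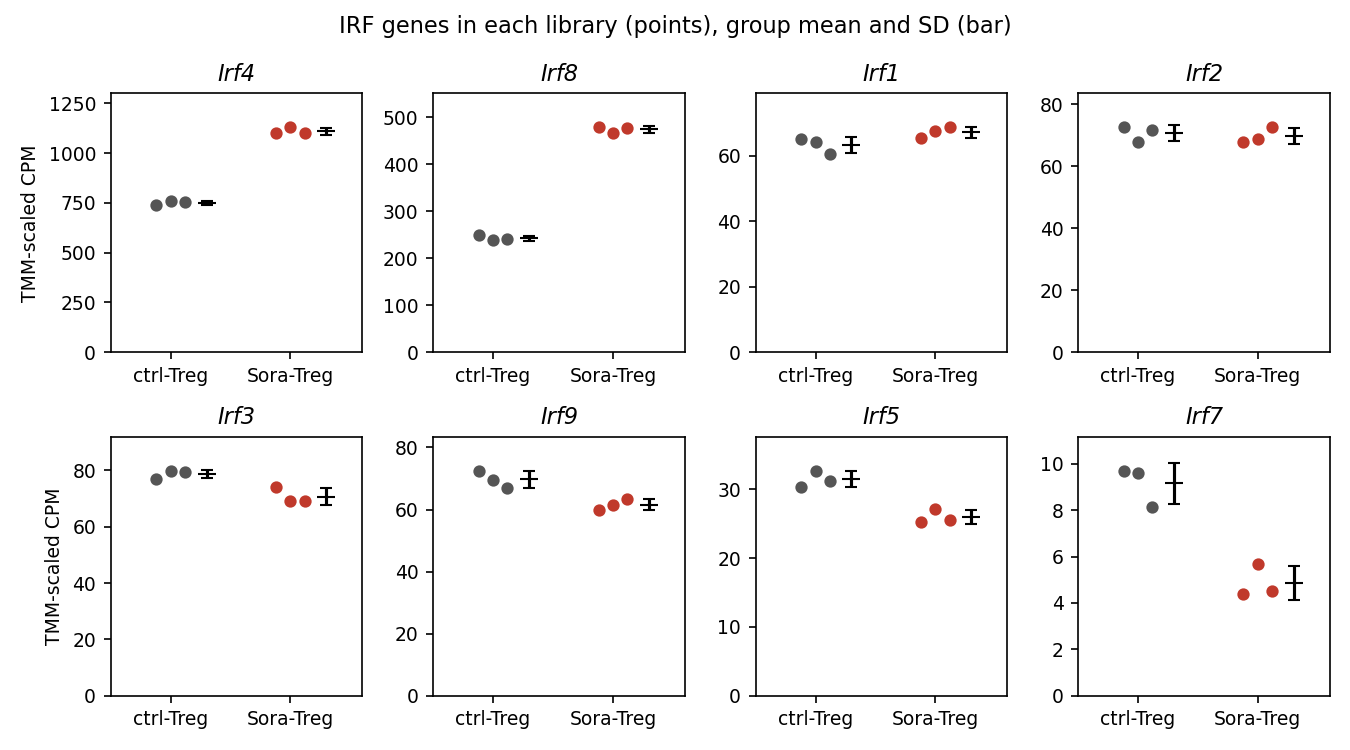
Level of each of the 8 IRF genes in each library, in TMM-scaled CPM on an axis from 0 for each gene, with each library as a point and the group mean and SD as a bar beside them. Irf4 (739 to 757 against 1100 to 1130 CPM) and Irf8 (239 to 249 against 466 to 479 CPM) stand apart upward and Irf7 (8.14 to 9.7 against 4.38 to 5.68 CPM) stands apart downward.

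Irf7, the interferon-inducible factor that amplifies the type I interferon response, fell the most. It is a small gene on the minus strand of chromosome 7 (141262706 to 141266481) and was the member with the fewest reads. It shares 45 bases with Phrf1 on the other strand, which had 3613 to 4771 counts per library. Whether reads were assigned by strand is not stated, so part of the Irf7 reads may come from Phrf1. Its counts were 382, 350 and 260 in ctrl-Treg 1, 2 and 3 and 133, 181 and 161 in Sora-Treg 1, 2 and 3. Scaled, these were 9.7, 9.62 and 8.14 CPM against 4.38, 5.68 and 4.52 CPM, so the groups were apart although the spread within them was wider than for the abundant members. The log2 fold change was -0.92 ± 0.13, or 1.89-fold lower (n = 3 per group, edgeR adjusted p = 1.5e-06). Per length the mean went from 4.92 ± 0.477 to 2.41 ± 0.349 FPKM, from percentile 67.7 to 61.6 of the detected genes. Irf7 was also the gene for which the 2-fold limit depended on 1 library: without Sora-Treg 2 the log2 fold change was -1.04. Ctrl-Treg 3, low in myeloid markers, had the lowest Irf7 of the controls, and with it as the lone control the log2 fold change was -0.74 (edgeR adjusted p = 0.00338).

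Irf9, the DNA-binding subunit of the interferon-stimulated complex with STAT2, was slightly lower. Its libraries read 72.5, 69.6 and 67 CPM in ctrl-Treg cells and 59.9, 61.3 and 63.4 CPM in Sora-Treg cells, without overlap. The log2 fold change was -0.18 ± 0.04 (n = 3 per group, edgeR adjusted p = 0.00108). With ctrl-Treg 3 as the lone control it was -0.12 (edgeR adjusted p = 0.151), so this call was not kept without ctrl-Treg 1 and 2. The gene (chromosome 14, 55603571 to 55610030, plus strand) shares 123 bases with Rnf31 on the same strand, which rose by a log2 fold change of 0.21 ± 0.04 (edgeR adjusted p = 0.00021), the opposite direction.

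Irf3, the constitutive factor activated by STING, MAVS and TRIF signalling, was lower by a similar amount. It stood at 77, 79.9 and 79.4 CPM in ctrl-Treg cells and 74.2, 69 and 69 CPM in Sora-Treg cells, with Sora-Treg 1 nearest to the controls. The log2 fold change was -0.16 ± 0.04 (n = 3 per group, edgeR adjusted p = 0.00256). Irf3 lies on chromosome 7 (44997648 to 45002848, plus strand), and 1065 bases of it overlap Bcl2l12 on the other strand. Whether reads were assigned by strand is not stated, so part of the Irf3 reads may come from Bcl2l12, which had 337 to 532 counts and also fell, by 0.26 ± 0.09 on the log2 scale (edgeR adjusted p = 0.0157).

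Irf5, a factor of Toll-like receptor signalling in myeloid and B cells, read 30.4, 32.7 and 31.2 CPM in ctrl-Treg cells and 25.2, 27.1 and 25.6 CPM in Sora-Treg cells. Each Sora-Treg library was below each ctrl-Treg library, and the log2 fold change was -0.27 ± 0.06 (n = 3 per group, edgeR adjusted p = 0.000465). Lyz2 read 47.5, 47.9 and 12.6 CPM in ctrl-Treg 1, 2 and 3. The B cell marker sum was 9.9 to 11 CPM in ctrl-Treg and 6.12 to 7.68 CPM in Sora-Treg libraries. The part of myeloid and B cells in the Irf5 change was not tested. With ctrl-Treg 3 as the lone control the log2 fold change was -0.26. The gene (chromosome 6, 29526625 to 29541871, plus strand) overlaps 1045 bases of Tnpo3 on the other strand. Tnpo3 had several times as many reads (3560 to 4805 per library against 765 to 1196 for Irf5). Its log2 fold change was 0.04 ± 0.04 (edgeR adjusted p = 0.416). Since the strand setting is not stated, part of the Irf5 reads may come from Tnpo3.

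Irf1 and Irf2, activator and antagonist at the same DNA sites, did not pass the test. Irf1 (chromosome 11, 53770014 to 53778374, plus strand) read 65, 64.2 and 60.5 CPM in ctrl-Treg cells and 65.3, 67.4 and 68.7 CPM in Sora-Treg cells. The groups lay side by side with almost no gap, and the log2 fold change was 0.09 ± 0.04 (n = 3 per group, edgeR adjusted p = 0.088). In FPKM, which is scaled by the library total, the order turned and the groups overlapped, with means of 19.6 ± 0.768 and 19.2 ± 0.466. Irf2 (chromosome 8, 46739732 to 46847458, plus strand) read 72.6, 67.9 and 71.6 CPM against 67.7, 68.7 and 72.6 CPM, overlapping groups with a log2 fold change of -0.02 ± 0.04 (n = 3 per group, edgeR adjusted p = 0.713). Scaled by library total alone, Irf2 was called lower at -0.14 (edgeR adjusted p = 0.00876) and Irf1 was not called. That scaling moves the median of all genes by -0.115 on the log2 scale, which is about the size of the Irf2 value. On the other strand, Gm17334 overlaps 907 bases of Irf1 and 3 gene models overlap Irf2, none of them among the genes counted.

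**Figure D2:**
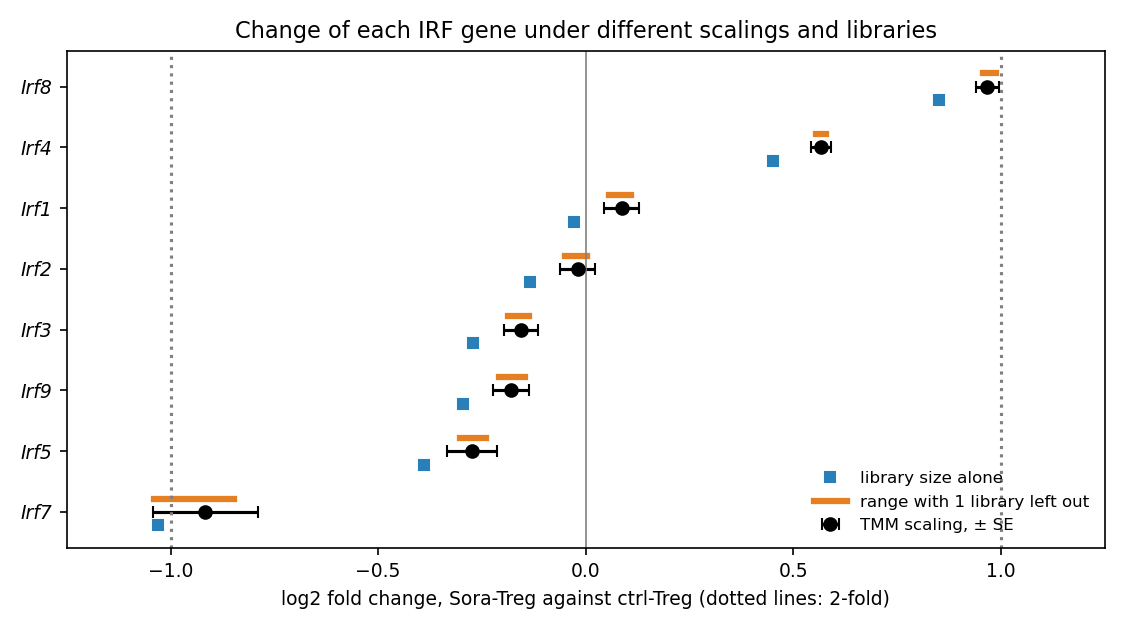
Log2 fold change of each IRF gene, Sora-Treg over ctrl-Treg, from the edgeR fit, with bars of 1 standard error (black), the value with library size alone (blue squares), the range when 1 library is left out (orange lines) and dotted lines at the 2-fold limit. In all of these Irf4 and Irf8 lie above 0 and Irf3, Irf5, Irf7 and Irf9 below 0, while the marks of Irf1 and Irf2 fall on both sides.

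The order of the levels per length was nearly the same in both groups. In ctrl-Treg cells it ran Irf4, Irf8, Irf3, Irf9, Irf1, Irf2, then Irf7 and Irf5, whose ranges overlapped (4.38 to 5.24 and 4.22 to 4.52 FPKM). All other neighbours in the order were apart in each library. In Sora-Treg cells Irf7 dropped to last place, with 2.18 to 2.82 FPKM below the 3.23 to 3.46 FPKM of Irf5. The rest of the order was kept.

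The summed FPKM of the 8 genes went from 330 ± 2.31 to 434 ± 0.945 (SD, n = 3 per group), and its make-up shifted toward Irf4 and Irf8. Together they made up 71.2%, 71.4% and 72% of the sum in ctrl-Treg 1, 2 and 3 and 81.8%, 81.9% and 81.7% in Sora-Treg 1, 2 and 3. Most of the shift was Irf8, whose share went from 22.2% ± 0.475 to 30.5% ± 0.57, while that of Irf4 went from 49.3% ± 0.727 to 51.2% ± 0.658. The share of Irf3 went from 9.8% ± 0.212 to 6.18% ± 0.282, that of Irf9 from 8.16% ± 0.288 to 5.06% ± 0.141 and that of Irf1 from 5.92% ± 0.192 to 4.42% ± 0.106. Irf7 went from 1.49% ± 0.134 to 0.556% ± 0.0791, Irf5 from 1.32% ± 0.0472 to 0.765% ± 0.027 and Irf2 from 1.78% ± 0.0685 to 1.23% ± 0.0459. The groups did not overlap for any of the 8 shares or for the sum, and a two-sided exact permutation test gave p = 0.1 for each, the smallest it can give with 3 against 3. Shares of 1 sum are tied to each other, so the smaller shares fall when Irf8 rises even where a gene itself did not pass the test.

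**Figure D3:**
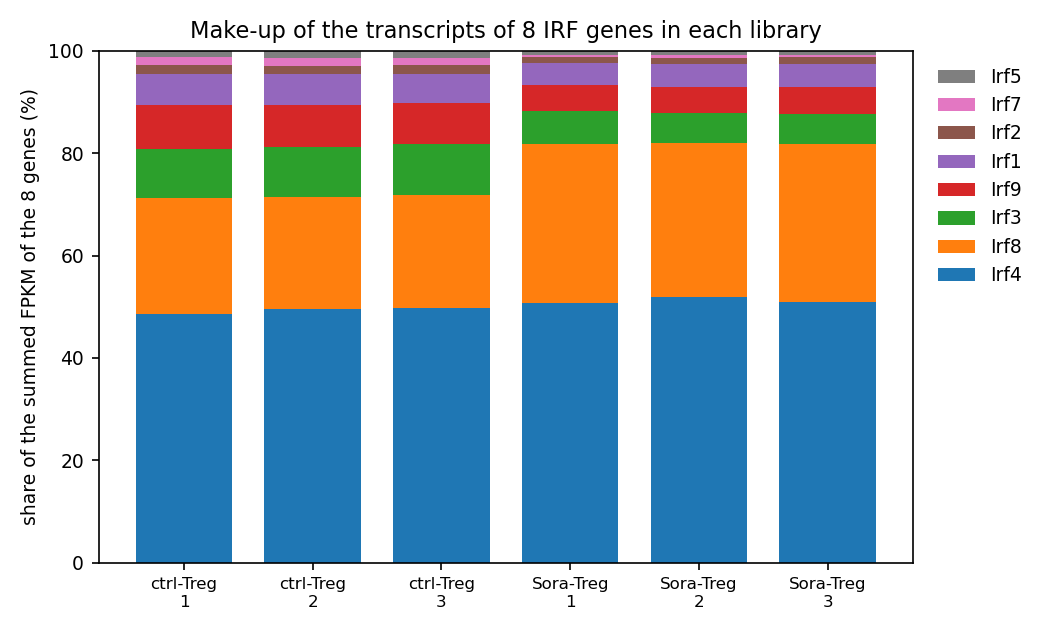
Share of each IRF gene in the summed FPKM of the 8 genes, in percent, 1 stacked bar for each of the 6 libraries. Irf4 and Irf8 fill 71.2% to 72% of the bar in ctrl-Treg libraries and 81.7% to 81.9% in Sora-Treg libraries.

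Ratios between members do not depend on how libraries are scaled. Of the 28 pairs, 24 had ratios that did not overlap between groups. The share over pairs of all genes was not computed. Since 63.7% of single genes did not overlap in TMM-scaled CPM, the count alone says little of the IRF genes. The FPKM ratio of Irf4 to Irf8 was 2.13, 2.27 and 2.25 in ctrl-Treg cells and 1.64, 1.74 and 1.65 in Sora-Treg cells, so Irf8 gained on Irf4 in each Sora-Treg library. The ratio of Irf8 to Irf9 was 2.69, 2.69 and 2.8 against 6.26, 5.95 and 5.9. The widest difference was that of Irf7 to Irf8, with 0.0692, 0.0714 and 0.0603 against 0.0162, 0.0216 and 0.0168. Pairs among Irf3, Irf5 and Irf9, and the pair Irf2 and Irf3, overlapped between groups. The exact permutation p was 0.1 for each separated pair (0.117 after adjustment over the 28 pairs), again the smallest possible.

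The rest of the pathway was read from fixed gene lists in the order sensor, interferon, receptor, partner and target, each given by its counts beside the 29.7% higher and 29.9% lower of all genes. Among 16 tested sensors, adaptors and kinases that activate IRF3, IRF5 and IRF7, 6 were higher and 8 lower, with a median log2 fold change of -0.195. Ikbke, the inducible kinase of IRF3 and IRF7, fell from 270 to 277 CPM in ctrl-Treg cells to 130 to 137 CPM in Sora-Treg cells (log2 fold change -1.05 ± 0.03, edgeR adjusted p = 5.78e-18). Its constitutive relative Tbk1 read 54.7 to 57.5 against 60.4 to 61.2 CPM (0.11 ± 0.04, edgeR adjusted p = 0.0253), a small change that was not called in 10 of the 18 alternatives and whose sign turned when libraries were scaled by their totals. Ifih1, the RNA sensor MDA5, fell from 18.3 to 19.9 CPM to 6.82 to 7.4 CPM (-1.42 ± 0.09, edgeR adjusted p = 2.13e-12). Sting1, the adaptor of DNA sensing, fell from 167 to 170 CPM to 125 to 132 CPM (-0.38 ± 0.03, edgeR adjusted p = 7.85e-10). Ticam1, the adaptor TRIF, rose from 19.3 to 20.2 CPM to 26 to 29.5 CPM (0.49 ± 0.07, edgeR adjusted p = 1.89e-06).

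Of 12 interferon genes in the fixed list, 6 were in the count table, and the rest had no values. The 6 were nearly silent in both groups. Ifng alone passed the filter on low counts, at 1.37 to 1.7 CPM in ctrl-Treg cells and 1.32 to 2.11 CPM in Sora-Treg cells (log2 fold change 0.07 ± 0.27, edgeR adjusted p = 0.85). The other 5 had at most 1 read in any library. At this depth no difference in them was detectable.

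Receptors and signal transducers moved mostly upward, with 8 of 11 higher, 2 lower and a median log2 fold change of 0.151. Ifngr1, the ligand-binding chain of the interferon gamma receptor, was 127, 137 and 130 CPM in ctrl-Treg cells and 363, 360 and 361 CPM in Sora-Treg cells (1.46 ± 0.03, edgeR adjusted p = 1.29e-20). Its partner chain Ifngr2 rose from 51.5 to 59 CPM to 69.7 to 70.5 CPM (0.36 ± 0.05, edgeR adjusted p = 8.03e-07). The shared interleukin 10 and interferon lambda chain Il10rb rose by 0.23 ± 0.04 (edgeR adjusted p = 2.75e-05), and Ifnlr1 rose by 1.31 ± 0.26 from about 1 CPM (edgeR adjusted p = 0.000142). The IRF9 partner Stat2 moved little, with a log2 fold change of 0.17 ± 0.04 (edgeR adjusted p = 0.000963) whose call was lost when libraries were scaled by their totals. Scaled by library totals, 4 of the 11 were called higher and 2 lower, where 21.3% of all genes were higher and 41.7% lower.

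All 9 tested DNA-binding partners of IRF4 and IRF8 changed, 5 up and 4 down (median 0.185). Stat3, which binds beside IRF4 at many T cell enhancers, rose from 568 to 586 CPM to 988 to 1000 CPM (0.78 ± 0.02, edgeR adjusted p = 8.6e-18). The AP-1 subunits Junb and Jund, partners of IRF4 together with BATF, rose from 432 to 458 CPM to 629 to 649 CPM and from 215 to 220 CPM to 303 to 304 CPM. Batf itself fell from 68.8 to 75.5 CPM to 51.9 to 57.6 CPM (-0.37 ± 0.05, edgeR adjusted p = 7.19e-07), so Batf did not move with Junb and Jund. The less abundant Batf3 rose from 3.41 to 4.29 CPM to 7.21 to 9.13 CPM (1.07 ± 0.14, edgeR adjusted p = 4.04e-07). Jun rose by 0.19 ± 0.03 on the log2 scale (edgeR adjusted p = 2.13e-05). Spib, an ETS factor that binds composite elements with IRF4 and IRF8, went from 542, 449 and 403 reads to 7, 14 and 5 reads (-5.58 ± 0.21, edgeR adjusted p = 2.01e-16). Spib is also a B cell and plasmacytoid dendritic cell gene, and the part of such cells in its change was not tested. Its relative Spi1, which encodes PU.1, was below the filter with 5 to 36 reads per library.

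Proteins that bind or modify IRFs went both ways, 4 of 11 higher and 6 lower (median -0.178). Def6, an IRF4-binding protein of T cells, rose from 146 to 156 CPM to 200 to 206 CPM (0.43 ± 0.03, edgeR adjusted p = 1e-10). Its homologue Swap70, which binds IRF4 as well, fell from 90.9 to 94.8 CPM to 66.3 to 71.2 CPM (-0.45 ± 0.04, edgeR adjusted p = 1.68e-09). Fkbp4, an immunophilin that inhibits IRF4 binding to DNA, fell by 0.52 ± 0.03 on the log2 scale (edgeR adjusted p = 7.58e-12), and Rbck1, a ubiquitin ligase of the linear ubiquitin complex, fell by 0.43 ± 0.03 (edgeR adjusted p = 3.02e-10).

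Of 12 genes of the T cell receptor pathway that raises Irf4, 4 were higher and 6 lower (median -0.042). Malt1, the paracaspase that carries the signal to NF-κB, rose from 178 to 180 CPM to 474 to 508 CPM (1.46 ± 0.03, edgeR adjusted p = 5.11e-21). Transcription factors of the list went both ways. The pair with the smallest p fell, Nfatc1 at 167 to 171 against 101 to 104 CPM and Rel at 171 to 175 against 106 to 115 CPM (-0.72 ± 0.03 and -0.65 ± 0.04, edgeR adjusted p = 1.15e-14 and 2.61e-13). Nfatc2 rose from 148 to 155 CPM to 191 to 197 CPM (0.37 ± 0.03, edgeR adjusted p = 9.11e-10).

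**Figure D4:**
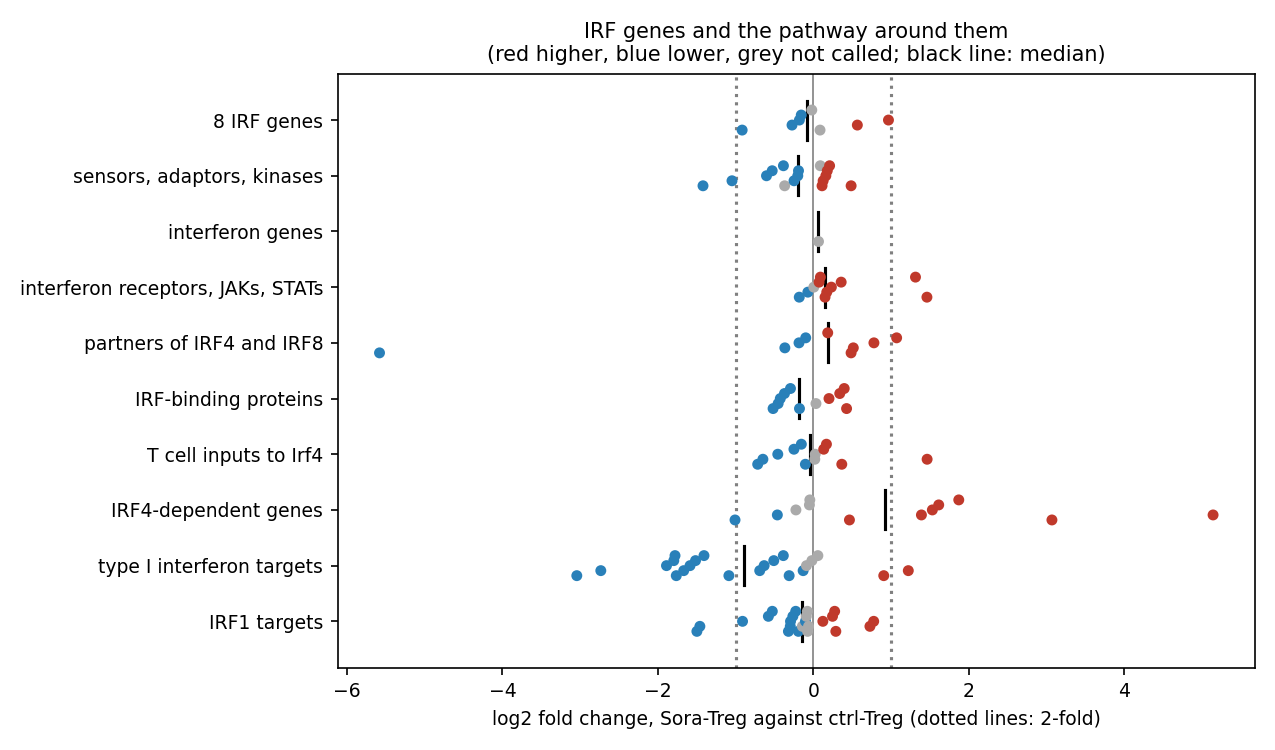
Log2 fold changes of the tested genes of each fixed list, 1 point a gene, with higher genes in red, lower genes in blue, genes not called in grey and the median of each list as a black line. The type I interferon targets lie mostly below 0 (17 of 22 lower, median -0.888) and the IRF4-dependent effector Treg genes mostly above 0 (7 of 12 higher, median 0.928).

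Genes that depend on IRF4 in effector Treg cells were mostly higher, 7 of 12, with 2 lower and a median log2 fold change of 0.928. Gzmb, the cytotoxic protease granzyme B, went from 9.93 to 11.3 CPM to 375 to 382 CPM (5.14 ± 0.04, edgeR adjusted p = 3.54e-28). Icos and Ctla4, costimulatory and inhibitory receptors of effector Treg cells, went from 193 to 205 CPM to 592 to 619 CPM and from 370 to 394 CPM to 1080 to 1130 CPM. Maf, a transcription factor of interleukin 10 expression, went from 18.1 to 19.2 CPM to 64.5 to 75.2 CPM (1.87 ± 0.06, edgeR adjusted p = 2.21e-17). The 2 lower genes were Ccr6 and Ccr8. Ccr6 fell from 104 to 111 CPM to 51 to 56.7 CPM (-1.01 ± 0.04, edgeR adjusted p = 3.54e-15), past the 2-fold limit. Ccr8 fell from 81.5 to 88.2 CPM to 59.1 to 65.1 CPM (-0.46 ± 0.04, edgeR adjusted p = 5.46e-09). The list holds Il10, which the study itself singled out in these samples, and Ctla4 is also a T and Treg marker above, so its direction is not independent evidence.

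Target genes of IRF9 and IRF7, the type I interferon signature, were mostly lower. Of 22 tested, 17 were lower and 2 higher, and the median log2 fold change was -0.888. Past the 2-fold limit 11 of the 22 were lower, beside 669 of all 13463 tested genes. With ctrl-Treg 3 as the lone control 14 were lower, in a fit that called 20.8% of all genes lower. Many were weakly expressed, and 2 of the 4 with the smallest p were the exceptions. Zbp1, a nucleic acid sensor, rose from 20.2 to 22 CPM to 42.4 to 52 CPM (1.22 ± 0.07, edgeR adjusted p = 6.96e-13), and Dhx58, a regulator of RNA sensing, rose from 19.8 to 20.6 CPM to 36.9 to 38.5 CPM (0.91 ± 0.06, edgeR adjusted p = 6.03e-12). Xaf1, an apoptosis-related interferon target, fell from 12.1 to 13.6 CPM to 5.96 to 6.26 CPM (-1.09 ± 0.10, edgeR adjusted p = 2.44e-09). Bst2, the viral tether tetherin, fell from 58.1 to 63.6 CPM to 42.3 to 44 CPM.

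Target genes of IRF1 downstream of interferon gamma were split, 6 of 23 higher and 12 lower (median -0.141), while Irf1 itself did not pass the test. Il12rb1, a chain of the interleukin 12 receptor, rose from 103 to 106 CPM to 172 to 182 CPM (0.78 ± 0.03, edgeR adjusted p = 5.33e-15). The guanylate-binding protein genes went in opposite directions, Gbp2 from 38.8 to 41.1 CPM to 65.3 to 67.3 CPM and Gbp6 from 29.8 to 33.5 CPM to 16 to 17.5 CPM. B2m, the light chain of class I molecules, rose by 0.25 ± 0.02 on the log2 scale from 1160 to 1210 CPM to about 1400 CPM (edgeR adjusted p = 3.32e-09). With ctrl-Treg 3 as the lone control, 8 of the 23 were lower, beside 20.8% of all genes.

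The genes most like Irf8 and Irf4 across the 6 libraries were found among 9166 genes of at least moderate expression by the root mean square (RMS) difference of centred log2 CPM profiles. For Irf8 these were Lrrc32, which encodes the Treg surface protein GARP, at an RMS of 0.0186, followed by Dlg4, Pgm1, Wdr13 and Unc13a, and 164 genes lay within 0.1. Lrrc32 had a log2 fold change of 0.96 ± 0.03, next to 0.97 for Irf8. For Irf4 they were Mcl1, a survival factor of the BCL2 family, at 0.00961, followed by Ocrl, Gabarapl1, Stc2 and the CD47 gene, and 657 genes lay within 0.1. With 3 libraries in each of 2 groups the profile is mostly the difference between groups, so likeness here says little more than a log2 fold change of similar size.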

How the data were processed

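RNA of GFP+ ctrl-Treg and Sora-Treg cells (3 libraries each, grouped by the labels) was sequenced. The authors deposited raw read counts per gene and FPKM. FPKM equalled count divided by gene length and library total (largest relative difference 1.64e-06) and served for levels between genes. The submitters' processing notes name fastp, HISAT2, HTSeq, R 3.2.0, DESeq2 and GRCm39, whereas the methods name Bowtie2 and GRCm38. The annotation release and strand setting are not given in the sources used here. Coordinates come from GENCODE M21 and RefSeq on GRCm38.p6, since the count files hold none.

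Counts were tested with edgeR 4.0.16 in R 4.3.3 (TMM scaling, filterByExpr, quasi-likelihood F test, Benjamini-Hochberg over 13463 genes), with limma 3.58.1, on log2(FPKM + 1) and log2(FPKM + 0.1) at a mean FPKM of at least 0.5, and DESeq2 1.42.0 among the alternatives. Norm factors ran from 0.959 to 1.04 and depth from 30727686 to 37717324 counts, which limits precision mainly for Irf7. Standard errors are the log2 fold change over the root of F. Scripts were tested on simulated data. No batch is labelled.

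Members and lists were chosen with earlier results of these data known. The genes named are the 8 members, up to 4 tested genes of the smallest adjusted p per list, and the 5 nearest profiles (mean log2 CPM of at least 3) of Irf4 and Irf8. Tbk1, Stat2, Batf, Spi1, Lyz2, Il2ra, Foxp3, Cd4, Itgax, Zbtb46, H2-Ab1, Il10 and overlapping genes were added for their role after their values were seen. Batf3, Jun, Ccr6, Ccr8, Cd3d, Cd3e, Cd3g, Tnfrsf18, Cd8a and Cd8b1 were likewise added after their values were seen. One further gene of the family was not analysed here, and some listed genes are not reported here.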

Additional observations from a re-analysis of the deposited data

How the results depend on the processing

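Over 18 alternatives, Irf3, Irf4, Irf5, Irf7 and Irf8 kept their direction and call, with log2 fold changes of -0.27 to -0.14, 0.45 to 0.58, -0.39 to -0.24, -1.04 to -0.74 and 0.84 to 0.99. Irf9 kept its call in 17 of 18 and had -0.1209 with ctrl-Treg 3 as the lone control. Irf1 turned to -0.0291 with library size alone, -0.0267 by limma on log2(FPKM + 1) with or without the filter and -0.0279 with 0.1 added. Leaving out 1 library in turn gave 0.055 to 0.11, and the adjusted p was 0.0474 by edgeR without Sora-Treg 1. Irf2 was -0.1353 with library size alone and ran from -0.0499 to 0.0036 on leaving out 1 library, above 0 (0.0034 and 0.0036) without ctrl-Treg 1 or Sora-Treg 1. The number of IRF genes past the 2-fold limit went from 0 to 1, Irf7, with library size alone, by limma with 0.1 added and without Sora-Treg 2 (range 0 to 1). The cause was not tested, except that library totals shift all genes. That scaling gave 1 higher sensor gene rather than 6, 4 higher receptor genes rather than 8, 2 higher inputs of Irf4 rather than 4 and 4 lower IRF4-dependent genes rather than 2, while 21.3% of all genes were higher and 41.7% lower.

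Of 53 other genes examined, 45 kept direction and call throughout. Ifng turned to -0.0486 (library size), -0.0335 and -0.0641 (limma, 1 and 0.1 added), and ran from -0.1658 to 0.1962 on leaving out 1 library, including -0.0088. Tbk1 turned to -0.0031 and -0.002, and Tnpo3 to -0.0773, -0.0731 and -0.076. The call of Tbk1 was lost in 10 alternatives and those of Stat2, Rnf31, Bcl2l12 and Lyz2 in 3 to 5. Shares of summed counts, not divided by length, were 57% and 58.9% for Irf4 and 18.5% and 25.2% for Irf8.

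Deviations of same-numbered libraries from their group means were nearly uncorrelated (-0.0438, 0.0591 and 0.0299). Counting noise enters these values, so they cannot tell whether same-numbered libraries share a culture or animal. The main test did not pair the samples. With the replicate block, 2 IRF genes were higher and 4 lower, as without it, and 97 rather than 99 genes of the lists were called.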
